A study of Homo sapiens with 2 samples.

Results

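The complement components and membrane regulators examined here were 6 genes looked up by exact name: C3, C1R, C1S, CD46, CD55 and CD59. Of these, 5 were listed on a line of their own among 12936 named genes (14952 loci). CD59 was not: its name occurred on 1 line, shared with C11orf91, and the value of that line belongs to the joint locus.

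The data were RNA-seq values from A549, a long-established line of human lung adenocarcinoma cells, grown with serum. There was 1 wild type library and 1 library of cells with MYOCD knocked down, so replicate error is unknown and no statistical test was made. MYOCD encodes myocardin, a coactivator of serum response factor. The labels give doxycycline for 72 h on both samples, whereas the design text calls the wild type untreated. Whether the comparison is also one of treated with untreated cells thus cannot be told apart. The knockdown sample is also written as MYOCD-/-, and the sources used here do not say how the cells were made or whether they are 1 clone. The unit is RPKM, a measure corrected for the length of the transcript and the size of the library, so levels can be set side by side between genes. Pairs of values give the wild type library first.

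Complement is a cascade of blood and tissue proteins that marks surfaces for removal and can pierce membranes. The liver makes most of the circulating proteins, but airway and alveolar epithelial cells also make some. C1R and C1S are serine proteases of the C1 complex, which starts the classical pathway. C3 is the central component on which all routes converge: its cleavage releases C3a and attaches C3b to the surface. Cells guard themselves with membrane proteins. CD55 speeds the decay of the convertases that cleave C3, CD46 helps factor I cut C3b and C4b, and CD59 blocks assembly of the membrane attack complex.

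The membrane regulators were the most abundant of these genes, and they differed in opposite directions. CD55 was lower in the knockdown library, with 57.8 and 38.0 RPKM, while CD46 was higher, at 75.6 and 86.8 RPKM. The locus of CD59 and C11orf91 was also higher, at 58.7 and 81.5 RPKM. C1S was higher and C3 lower, with C1R nearly level. None of the 5 genes listed alone reached the 2-fold size rule, which 1.37% passed in either direction among the 12158 named genes that average 1 RPKM or more (the compared genes).

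**Figure D1:**
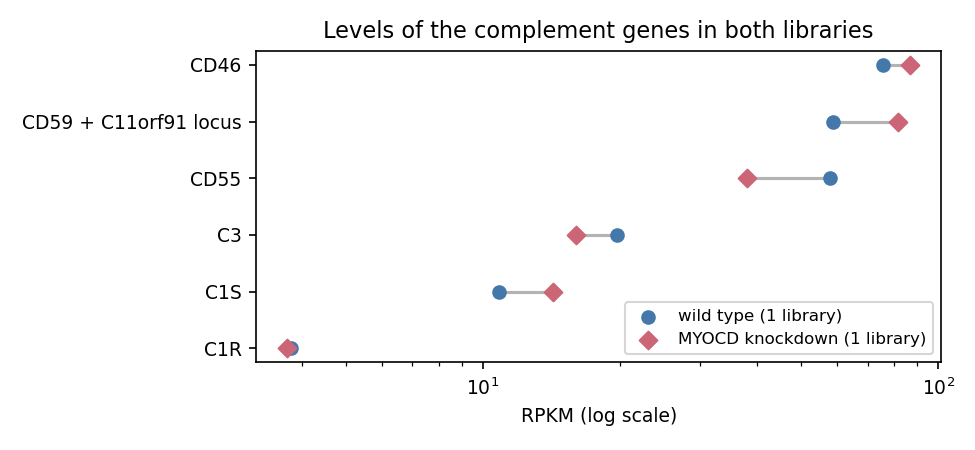
RPKM (log scale) of each complement gene in the wild type library (circles) and the MYOCD knockdown library (diamonds), 1 library each. CD55 lies to the left of its wild type level at 38.0 RPKM, and CD46 and the CD59 locus lie to the right of theirs, at 86.8 and 81.5 RPKM.

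The target of the knockdown was near the lowest listed values, at 0.881 and 0.400 RPKM for MYOCD. Of 9 lung epithelial markers, the keratins KRT8 and KRT18 were abundant and similar in both libraries. They had 1545 and 1521 RPKM and 1776 and 1683 RPKM. CDH1 had 23.8 and 22.5 RPKM, KRT19 had 7.70 and 7.69 RPKM, and EPCAM was low at 2.24 and 2.15 RPKM. NAPSA was low and less similar, at 1.27 and 0.771 RPKM. The lung lineage genes NKX2-1, SFTPB and SFTPC were not listed. Of the 7 leukocyte markers, PTPRC, CSF1R, CD3E and CD79A were not listed. CD14 had 3.13 and 3.30 RPKM, ITGAM had 0.561 and 0.962 RPKM, and CD68 lay in a locus shared with MPDU1. Of 6 fibroblast markers, COL1A1 and THY1 were listed, both under 3 RPKM, and of 4 endothelial markers none was. As in any bulk sample, fewer cells of a type and less RNA per cell cannot be told apart.

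Sequences of C1R, CD59 and CD46, and of CFB from the wider complement list, are printed because they hold the motif matches and the 3′ UTR word described below. All are read 5′ to 3′ on the gene's strand. The promoter windows come from RefSeq (GRCh38.p14), at chr6:31945983-31946012 for CFB, the gene of factor B (plus strand), chr12:7091960-7091989 for C1R and chr11:33736588-33736617 for CD59 (both minus strand). Capitals mark a match to the NF-kB consensus (the first 10 bases of the CFB window) or to the STAT consensus TTCNNNGAA. In the CD46 sites, from the 3′ UTR in GENCODE release 29, capitals mark the word AATATGC.
CFB promoter: GGGGCCCTCCcgcttggatgTTCCGGGAAa
C1R promoter: gccagtcctaTTCCTGGAAggggaggggag
CD59 promoter: ccacccggccTTCTCAGAAcctgggccagg
CD46 first site: tggtggagctgAATATGCcacttaccagac
CD46 second site: tgaaaattgggAATATGCacaaacttggct

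CD55, also known as decay-accelerating factor, is held to the outer membrane by a glycosylphosphatidylinositol (GPI) anchor. GENCODE release 29 (GRCh38) places it on chromosome 1, plus strand, between 207321376 and 207386804. Its 57.8 RPKM in wild type cells exceeded the levels of 87.7% of compared genes, and its 38.0 RPKM after knockdown those of 80.4%. After knockdown 65.8% of the wild type level was left. Differences are given as log2 ratios of RPKM with a pseudocount of 1 added to each value, a scale on which low genes differ less than their plain ratio. CD55 differed by -0.59, and 3.06% of compared genes had a lower one. CD55 was the only one of the 5 genes past a 1.5-fold size rule, as were 3.20% of all compared genes on the lower side and 1.65% on the higher side. It passed that rule narrowly: with a pseudocount of 5 the difference was -0.55, short of 1.5-fold.

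CD46, the membrane cofactor protein, spans the membrane and also lies on chromosome 1, plus strand, between 207752057 and 207795513. A gap of 365252 bases separates its annotated start from the end of CD55. Its levels of 75.6 and 86.8 RPKM made it the most abundant of these genes in both libraries, and 91.1% of compared genes had a lower level in the wild type library. The difference was 0.20, with 19.5% of compared genes higher, and it was 0.00 (-0.00065) when the libraries were rescaled to equal summed RPKM over all loci. Rescaled to equal medians or to equal sums over protein-coding loci, it stayed at 0.20. The protein-coding genes annotated next to CD55 and CD46 (C4BPA and CR2, CR1L and CD34) were not listed.

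The ratio of these regulators within a library does not depend on how the libraries are scaled. CD46 stood at 1.31 times CD55 in the wild type and 2.28 times in the knockdown library, a 1.74-fold difference. For the CD59 locus the corresponding ratios to CD55 were 1.02 and 2.15, a 2.11-fold difference. In the wild type library CD55 and the CD59 locus were thus nearly level, and in the knockdown library they were apart.

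CD59, which is GPI-anchored as CD55 is, lies on chromosome 11, minus strand, between 33703010 and 33736491. C11orf91 is annotated 2208 bases from it on the same strand. The joint locus had 58.7 and 81.5 RPKM, a difference of 0.47, and 3.30% of compared genes were higher. This was the highest difference among the 6 names, and the shares of CD59 and C11orf91 in it cannot be told apart. FBXO3, the neighbour on the other side, had 16.6 and 15.9 RPKM.

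**Figure D2:**
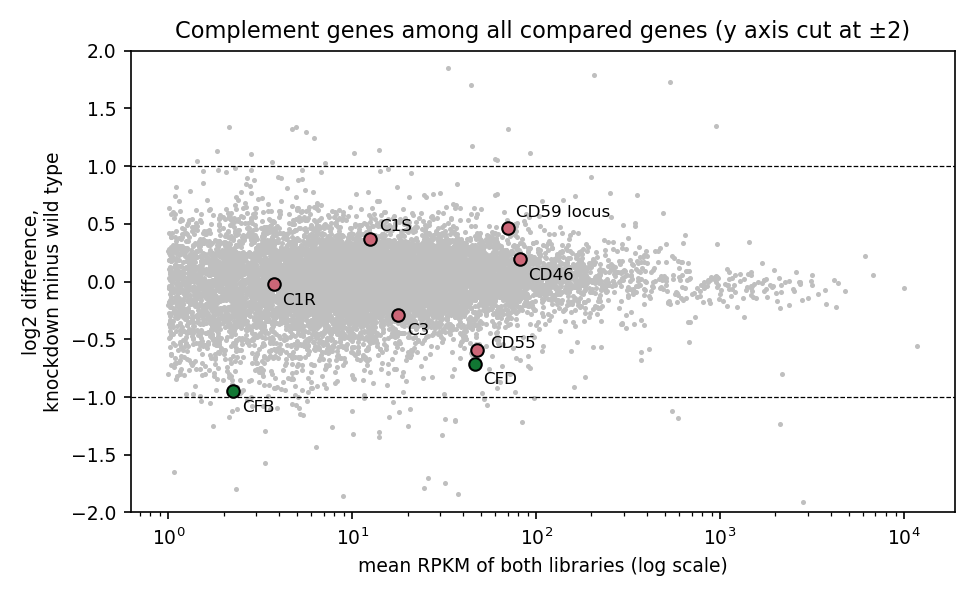
Log2 difference between the libraries (knockdown minus wild type) against the mean RPKM (log scale) of each of 12064 compared genes (grey), with 94 genes beyond 2 in either direction not shown. Red points are the 6 complement names and green points CFB and CFD, and dashed lines mark 2-fold. CD55 lies at -0.59 and the CD59 locus at 0.47, both inside the dashed lines.

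C1R and C1S are a pair of related proteases that work in one complex, and their genes lie next to each other on chromosome 12, 9166 bases apart on opposite strands. C1S (plus strand, 6988259 to 7071032) had 10.8 RPKM in the wild type and 14.3 RPKM in the knockdown library. Its difference was 0.37, and 5.70% of compared genes were higher. C1R (minus strand, 7080199 to 7092607) had 3.80 and 3.72 RPKM, a difference of -0.02 in the middle of the distribution (43.8% of compared genes lower). C1R was the least abundant of the 5 genes in both libraries.

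The ratio of C1S to C1R was 2.85 before and 3.84 after knockdown, a 1.34-fold difference. C1RL, a C1R-like protease gene whose annotation overlaps C1R on the same strand, had 15.6 and 14.3 RPKM, so reads at C1R and C1RL may have been divided between them and both are uncertain. The annotated span of C1S overlaps EMG1 on its own strand (43.4 and 48.1 RPKM) and LPCAT3 on the other (25.2 and 26.8 RPKM). Reads at C1S and EMG1 may thus have been divided between them, whether or not counting was stranded, so C1S is uncertain too. The sources used here do not state whether counting was stranded, which bears on LPCAT3. Beyond C1S lies PHB2, with 168 and 175 RPKM.

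C3, on chromosome 19 (minus strand, 6677704 to 6730562), was lower in the knockdown library, at 19.7 and 16.0 RPKM. This is 81.1% of the wild type level and a difference of -0.29, with 12.7% of compared genes lower. Neighbouring TRIP10 had 37.4 and 31.3 RPKM, a difference of -0.25. GPR108, whose annotation overlaps that of C3 on the same strand, had 18.1 and 16.0 RPKM. Reads may have been divided between these genes as well, so C3 is also uncertain. The level of C3 was 1.82 times that of C1S in the wild type and 1.12 times in the knockdown library.

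The order of levels was the same in both libraries: CD46, the CD59 locus, CD55, C3, C1S and C1R, from highest to lowest. With 1 library each, whether neighbours in this order differ beyond their spread could not be measured. Over the 5 genes listed alone, 2 were higher and 3 lower, with a median difference of -0.02, beside 0.01 over all compared genes, of which 52.1% were higher.

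Further complement genes came from a list of 61 names, of which 13 were compared, 2 had a mean under 1 RPKM and the rest were not listed. None passed 2-fold, beside 0.650% of all compared genes on the higher side and 0.724% on the lower side. Their median difference was 0.02, with 7 higher and 6 lower. Rescaling to equal summed RPKM shifted the median of all compared genes by -0.18 and that of these 13 genes to -0.18. The same rescaling gave 68 higher and 140 lower genes past 2-fold over the whole table, in place of 79 and 88.

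The lowest differences among the 13 genes were those of CFB and CFD, both of the alternative pathway. Factor B (CFB), the protease that joins C3b to form the C3 convertase, had 3.30 RPKM in wild type and 1.22 RPKM in knockdown cells, 37.1% of the wild type level. Its difference was -0.95, and 0.839% of compared genes were lower. Factor D (CFD), which cleaves factor B, had 58.0 and 35.0 RPKM, a difference of -0.71 with 1.89% of compared genes lower. These were the 2 of the 13 genes past 1.5-fold, beside 3.20% of all compared genes on the lower side and 1.65% on the higher side. C3 was 5.98 times as high as CFB in the wild type and 13.1 times in the knockdown library. CFB was low in both libraries, and the size of its difference moved with the pseudocount, from -1.36 at 0.1 to -0.41 at 5. With a pseudocount of 5 CFB was thus short of 1.5-fold, while CFD, at -0.65, still passed it. The annotation of C2, another complement gene, overlaps CFB on the same strand, and C2 was not listed.

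The soluble inhibitors differed less. Clusterin (CLU), which holds back the terminal complex, had 359 and 337 RPKM, and its annotated locus contains a short RNA gene. Vitronectin (VTN) had 8.03 and 8.51 RPKM. C5, the start of the terminal pathway, was nearly level, with a difference of -0.12. C6, C7, C8A, C8B and C9, which build the pore on it, were not listed, and C8G had 0.219 and 0.739 RPKM. Serpin inhibitor SERPING1 of C1 and the protease factor I (CFI) were not listed either.

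Among receptors and other proteins that bind complement, C5AR1, the receptor of C5a, had 1.24 and 1.43 RPKM, and C3AR1 was not listed. C1QBP, a mainly mitochondrial protein that also binds C1q, had 348 and 392 RPKM. Calreticulin (CALR), an endoplasmic reticulum chaperone that binds C1q, had 369 and 374 RPKM, and its locus also contains a short RNA gene. Thrombomodulin (THBD) had 1.65 and 2.89 RPKM, a difference of 0.55 with 1.95% of compared genes higher. CD109, a GPI-anchored protein of the family to which C3 belongs, had 18.7 and 20.8 RPKM. All 5 were higher in the knockdown library as deposited, but with equal summed RPKM C1QBP, CALR and CD109 were below 0, at -0.03, -0.18 and -0.04. With equal medians or equal sums over protein-coding loci all 5 stayed above 0. The chains of C1q (C1QA, C1QB and C1QC), C4A, C4B and the lectin pathway proteases MASP1 and MASP2 were not listed.

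**Figure D3:**
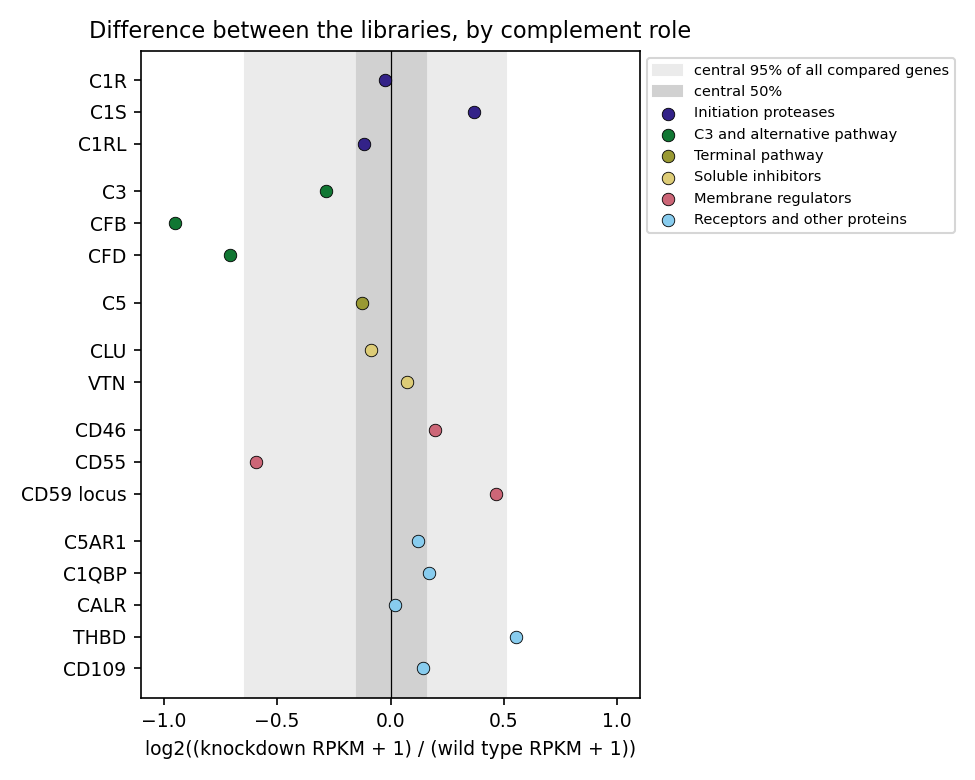
Log2 difference between the libraries for 17 complement names by role. The shaded bands are the central 95% (light, -0.64 to 0.51) and the central 50% (dark, -0.15 to 0.16) of 12158 compared genes. CFB, CFD and THBD lie outside the light band, and CD55 lies inside it near its lower edge.

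Because CD55 and CD59 both need a GPI anchor, the genes that build and remodel it were described as well. All 29 were compared, 19 higher and 10 lower, beside 52.1% higher over all compared genes. The median difference was 0.05, or -0.14 with equal summed RPKM. None of the 29 passed 2-fold, beside 1.37% of all compared genes in either direction. None passed 1.5-fold either, beside 1.65% of all compared genes on the higher side and 3.20% on the lower side. For a list of 29, none is near these shares. PIGA, which acts in the first step, had 5.47 and 6.87 RPKM, and GPAA1, a subunit of the transamidase that attaches the anchor, had 74.4 and 82.0 RPKM. The highest were PIGW (13.7 and 19.0 RPKM) and PIGM (6.65 and 8.82 RPKM), and the lowest were PIGV (12.9 and 9.84 RPKM) and PIGP (20.3 and 16.7 RPKM).

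Other GPI-anchored proteins, like CD55 and the CD59 locus, went both ways. Of 28 names, 19 were compared, 12 higher and 7 lower, with a median of 0.04, or -0.10 with equal summed RPKM. None passed 2-fold, beside 1.37% of all compared genes. In each direction 2 passed 1.5-fold, beside 1.65% of all compared genes on the higher side and 3.20% on the lower side. The lowest were the prion protein gene PRNP (91.4 and 51.9 RPKM) and RECK, a metalloprotease inhibitor (9.20 and 5.17 RPKM). The highest were NT5E, the ecto-enzyme CD73 (4.30 and 9.21 RPKM), and LY6K (0.691 and 1.92 RPKM). LY6K was low in both libraries, and its difference moved from 1.35 at a pseudocount of 0.1 to 0.28 at 5. With a pseudocount of 5, LY6K and RECK (-0.48) were short of 1.5-fold, while NT5E (0.61) and PRNP (-0.76) still passed it.

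C3 and factor B are acute phase proteins, made in larger amounts when cytokines act through STAT3, C/EBP factors and NF-kB, so other acute phase genes were set beside them. Of 19 names, 7 were compared and all 7 were lower in the knockdown library. Their median difference was -0.61, beside 0.01 over all compared genes, of which 52.1% were higher. None of the 7 passed 2-fold, and 4 passed 1.5-fold on the lower side, as did 3.20% of all compared genes. This list was chosen with earlier results of these data known, so these counts describe it and support nothing. Serum amyloid A (SAA1) had 2.55 and 1.01 RPKM, but SAA2 is a near-identical copy, so this value is uncertain. Lipocalin 2 (LCN2), which binds bacterial iron carriers, had 14.2 and 8.79 RPKM, and ceruloplasmin (CP), a copper-carrying oxidase, had 12.5 and 7.75 RPKM. The fibrinogen chains FGA, FGB and FGG had 6.05 and 3.93, 1.64 and 1.47, and 5.47 and 3.23 RPKM. The list also held the transferrin receptor TFRC, which takes up iron and is not itself a plasma protein, at 77.2 and 58.4 RPKM. The gene SERPINA3 was under the mean of 1 RPKM, at 0.693 and 0.468, and the joint locus of SAA2 and SAA4 had 0.756 and 0.848 RPKM.

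Factors and receptors that act on these genes lay closer to 0, with more of them lower than higher. Of 24 names, 21 were compared, 8 higher and 13 lower, beside 52.1% higher over all compared genes. Their median was -0.04, or -0.23 with equal summed RPKM. None of the 21 passed 1.5-fold, beside 1.65% of all compared genes on the higher side and 3.20% on the lower side. For a list of 21, none is near these shares. Whether this list differed from the acute phase proteins was not tested. The lowest were the IL-1 receptor subunit IL1RAP (3.84 and 2.74 RPKM) and the factor CEBPD (60.3 and 46.5 RPKM), followed by CEBPB (160 and 126 RPKM). The highest were NFKB1, a subunit of NF-kB (10.1 and 13.4 RPKM), and STAT3 (43.3 and 54.7 RPKM). The cytokine genes IL6, IL1A and IL1B were not listed.

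**Figure D4:**
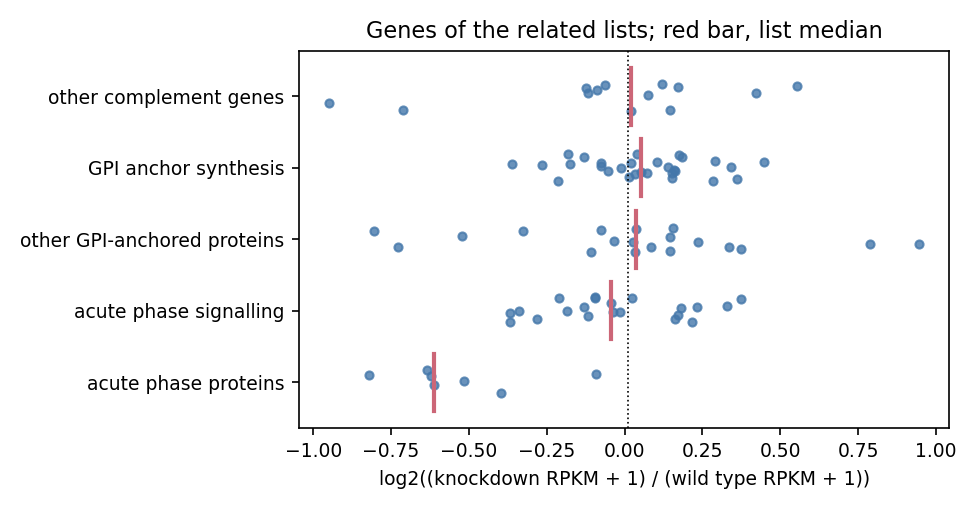
Log2 difference between the libraries (knockdown minus wild type) for each compared gene of 5 related lists, with the list median as a red bar and the median of all compared genes as a dotted line. The 7 compared genes of the acute phase protein list, with the receptor TFRC among them, all lie below 0 (median -0.61). The medians of the other lists lie between -0.04 and 0.05. SERPINA3 and the joint locus of SAA2 and SAA4 are not plotted. The lists were chosen with earlier results of these data known.

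The RefSeq promoter windows, 250 bases before to 50 after each start, included C1R, CD46, CD55 and CD59 among the 6 names, as well as CFB and CFD. They were searched on both strands for 7 motifs. These were the CArG box bound by serum response factor, the NF-kB consensus, TTCNNNGAA (STAT), TTNNGNAA (C/EBP), TGACGTCA (CRE), TGANTCA (AP-1) and the interferon-stimulated response element. The CArG box was in none of the windows of these genes, and in 1.29% of all 35116 windows. The window of CFB held the NF-kB consensus 112 bases before the start (in 11.3% of all windows). It also held the STAT consensus 92 bases before the start (in 7.66% of all windows) and the interferon motif at 140 bases (in 3.57%). A STAT match was also found 86 bases before a start of C1R and 128 bases before a start of CD59, as printed above. The same CD59 bases lie 184 before another of its starts. C1R has 2 windows and CD59 has 4, and the shares given are per window, not per gene. The C/EBP letters, which 36.8% of all windows hold, occurred in windows of C1R and CD59. AP-1 letters, in 7.71% of windows, occurred in 1 of the 4 CD59 windows. None of the 7 was in the windows of CD55, CD46 or CFD. A match is only a match of letters, and no binding was measured.

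The word AATATGC was looked for in the longest annotated 3′ UTR of each name. It occurred in 11.5% of 10793 compared protein-coding genes. Among these it was in 53 of the 292 genes lower by 1.5-fold (18.2%) and in 11.3% of the other 10501, with median UTR lengths of 974.5 and 1423 bases. The word had been picked for its frequency in those lower genes, so these shares describe it and support nothing. Of the 6 complement names only CD46 held it, at positions 62 and 619 of 2036 bases. The first site lies in the 3′ UTR of 3 of 11 annotated CD46 transcripts and the second in that of 9. CD46 was the higher of the pair on chromosome 1, while CD55, with a UTR of 1356 bases, held no copy. None of the 13 further complement genes held it.

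Genes with the most similar pair of levels, by distance over both log2(RPKM + 1) values among 11006 other protein-coding loci of 1 gene, rest on 2 libraries and so describe only level and ratio. For CD55 these were PEPD (55.8 and 38.0 RPKM) and HMG20B (58.4 and 39.8 RPKM). Only 3 genes lay within 0.1 of CD55, against 41 to 65 for C3, C1R, C1S and CD46. C3 lay nearest to STXBP2 (19.7 and 16.1 RPKM) and FOXA2 (19.9 and 15.8 RPKM). C1S lay nearest to LRRC40 and RPRD1B, CD46 to TFG and PPP1CB, and C1R to KLHL28 and ZNF185.

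The differences of the 6 names kept their sign under every pseudocount and scaling tried, apart from CD46. C3 ran from -0.47 to -0.24, C1S from 0.18 to 0.40, CD55 from -0.79 to -0.55 and the CD59 locus from 0.27 to 0.47. The end of each range nearest the negative side came from equal summed RPKM, which moves all genes by a similar amount.

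**Figure D5:**
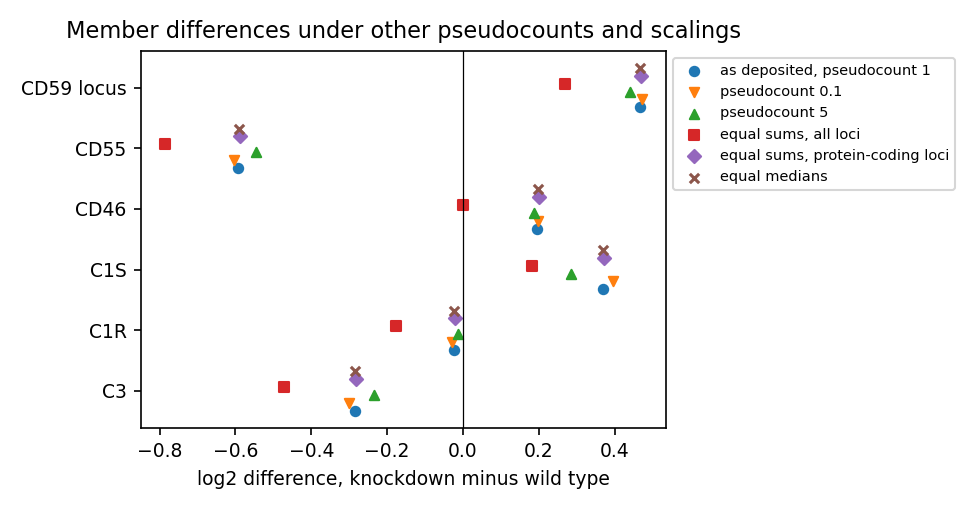
Log2 difference between the libraries for each of the 6 complement names under 3 pseudocounts and 3 rescalings. Equal summed RPKM over all loci (red squares) lowers every gene, with CD46 at 0.00 and CD55 at -0.79, while equal medians and equal protein-coding sums stay beside the deposited values.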

How the data were processed

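RPKM values of 2 libraries were deposited by the authors in 1 table of loci. Per the submitters' processing notes, TopHat2 (2.0.10), Cufflinks (2.2.1) and 2 builds, GRCh38.p12 and BDGP5 of the fruit fly, were involved in some role. The sources used here give no annotation, filter, strand setting or read count, so depth is unknown. The higher library of every locus was at least 0.652 RPKM, so genes low in both are not listed.

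Names on several lines (102) were summed, and lines with no name (1909) were left out. Genes averaging 1 RPKM or more were compared by size rules of 2-fold and 1.5-fold on log2(RPKM + 1), with no statistical test. Symbols were matched with RefSeq synonyms. Coordinates and UTRs came from GENCODE release 29, and the authors' loci may have other limits. The members and lists were chosen with earlier results of these data known. The lists and the rule for named genes (all complement genes, and the 2 highest and 2 lowest of other lists) were written down before this computation, and further list members, motifs and the word were added later. A first look included 2 more motifs, which are not reported. Some list members enter the counts and medians, but their own values are not reported here. Python 3.11.15, numpy 2.4.6 and pandas 2.3.3 were used, and the size rule was tested on simulated data.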

Additional observations from a re-analysis of the deposited data

How the results depend on the processing

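Each group had 1 library, so no replicate could be left out. No paired analysis was possible because the groups share 1 replicate number only and the result comes from no test. Other pseudocounts, filters, scalings, a single line per repeated name and a lower size rule gave 133 values of the 6 names, list medians and counts that the setting could move. Of these, 108 stayed within 0.1 on the log2 scale with the same sign, or within 1.5 times for counts, and the other 25 are given here. Single genes of the lists are not among the 133. With libraries rescaled to equal summed RPKM the differences were -0.47 for C3, -0.18 for C1R, 0.18 for C1S, -0.00065 for CD46, -0.79 for CD55 and 0.27 for the CD59 locus. List medians were then -0.18 (other complement), -0.14 (GPI anchor synthesis), -0.10 (other GPI-anchored proteins), -0.23 (acute phase signalling) and -0.76 (acute phase proteins). In that setting 1 other complement gene, CFB at -1.06, passed 2-fold, and 140 genes in all were lower by 2-fold. This follows from the factor of 0.871 on all knockdown values. Summed RPKM was 1.02e+06 and 1.17e+06 over all loci, but 502633 and 501107 over the compared protein-coding loci of 1 gene. A pseudocount of 0.1 put 1 other complement gene, 2 other GPI-anchored proteins and 1 acute phase gene past 2-fold, with 189 genes in all lower in place of 88. A pseudocount of 5 gave 53 lower genes and an acute phase median of -0.35. Requiring a mean of at least 5 RPKM, which drops the low genes, moved the median of the other complement genes to -0.064. Under the 1.5-fold rule CD55 passed at -0.59, as did 2 other complement genes, 4 other GPI-anchored proteins and 4 acute phase genes, with 201 higher and 389 lower genes over the table. Depth is unknown, and low genes such as CFB, C1R and THBD are the least certain.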
